A study of Rattus norvegicus with 2 samples.

Results

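Cadherins, protocadherins, connexins and claudins, the gene families that build contacts between neighbouring cells, were compared between cultured bone marrow stromal cells of normal and of transgenic rats. Members were chosen by name: array probes were matched through their RefSeq accessions to current rat gene symbols, and every symbol of these families was kept. The naming rule uses no measured value, although the families were picked with earlier results of these data known. This gave 94 genes of 15168 matched in all, namely 21 cadherins (2 of them cadherin-related genes), 32 protocadherins, 16 connexins and 25 claudins. The RefSeq table lists 133 genes under these names, and the other members were not analysed here.

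The control group held cells of wild type Sprague-Dawley rats. The transgenic group held cells of Sprague-Dawley rats that carry both a human renin and a human angiotensinogen gene, a model in which human renin cleaves human angiotensinogen. The promoters of these transgenes, the age of the animals and the number of animals or cultures behind each RNA are not given in the sources used here. Cells were plated at 150000 per well and lysed before confluency, and total RNA was labelled with Cy3. Each group had 1 one-colour array, so the variation among rats is unknown, differences have no replicate check, no test was made, and every value describes these 2 arrays alone.

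Signals are background-subtracted scanner intensities in linear units, given as measured, and a level is never compared between genes because probes differ in efficiency. Differences are transgenic minus control on the log2 scale after subtraction of each array's 75th percentile of signal (905 units in control and 1080 in transgenic), so equal signals on both arrays come out slightly below 0. Fold changes are on the same scale. A probe counted as detected when over 50% of its spots were well above background. The error given with a difference is the scanner software's own error of the signals carried to the log2 ratio; its median over detected genes was 0.20, and it covers measurement only. Repeated spots of a detected probe had a median SD of 0.056 log2 in control and 0.055 log2 in transgenic. A 2-fold difference served as the size rule. Of 9397 matched genes detected on both arrays, 10.5% were higher and 11.1% lower in transgenic by this rule, with a median difference of -0.09 log2. With the arrays scaled on spike-in controls instead, 93.7% of the genes past 2-fold were higher, against 48.7% with the scaling used here, so each direction below is relative to that scaling. No spot was saturated.

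Cadherins are calcium-dependent adhesion proteins whose cytoplasmic tails bind catenins and so join the actin cytoskeletons of adjacent cells. Protocadherins share the extracellular repeats but not the catenin-binding tail, and many were described in the nervous system. Connexins assemble into gap junction channels that pass ions and small metabolites, and in bone and marrow stroma these channels couple osteoblasts, osteocytes and stromal cells. Claudins form the strands of tight junctions, which are typical of epithelia and endothelia rather than of stroma.

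Of the 94 members, 26 were detected on both arrays, 7 on the transgenic array alone, 7 on the control array alone, and 54 on neither. By the size rule 6 of the 26 were higher in transgenic (10.5% over all matched genes) and 7 were lower (11.1% over all matched genes), so 50% of the detected members lay past 2-fold against 21.6% of all matched genes. In RNA from a whole culture, fewer cells of a type and less RNA per cell cannot be told apart. Among connexins 3 of 7 were higher and 0 lower, and among claudins 2 of 3 were higher and 0 lower. Among protocadherins 0 of 9 were higher and 4 lower, and among cadherins 1 of 7 was higher and 3 lower. Median differences were 0.53 log2 for connexins, 1.45 for claudins, -0.30 for protocadherins and -0.98 for cadherins, and with spike-in scaling 1.52, 2.43, 0.68 and -0.00011, so that the sign for protocadherins turned. With no filter on dim probes the connexin and claudin medians came to -0.20 and -0.17 log2, beside -0.20 log2 over all matched genes. The claudin median is that of Cldn12, the middle one of 3 genes, and was 0.90 with normexp background correction, 0.97 in the authors' processed values and 0.81 with a gene's probes averaged. Medians over so few genes are descriptions, and differences between the families were not tested.

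**Figure D1:**
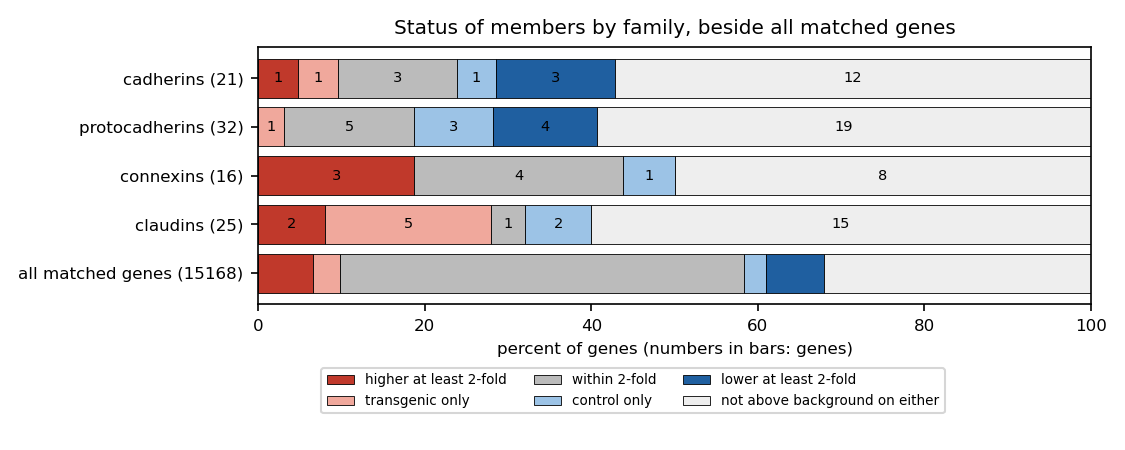
Stacked bars give the percent of genes of each family, and of all 15168 matched genes, by status on the 2 arrays; numbers in the bars are genes. Of genes detected on both arrays, connexins and claudins hold 3 and 2 that were higher and 0 lower, and protocadherins hold 4 lower and 0 higher, of which Pcdh18 alone stayed 2-fold lower with spike-in scaling.

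Detection was sparser than for genes at large. Of the members 42.6% were detected on at least 1 array, against 67.9% of all matched genes. On the transgenic array alone 7 of 94 members were detected, against a background of 3.29% of matched genes, and on the control array alone 7 of 94, against 2.64%. For such genes the fold is a nominal lower bound, set against the signal of the dim probe itself. Where that signal is below the dimmest detected probe of that array (15.3 units in control and 15.9 in transgenic), that probe is used instead. The detection limit is not sharp, as members detected on neither array reached 19.8 units in control and 24.8 in transgenic. A fold given below as at least some value is therefore not a guaranteed minimum. The bound reached 2-fold for 4 members on the transgenic array alone (background 1.87%) and for 4 on the control array alone (background 1.79%). With normexp background correction, and in the authors' processed values, only 2 and 1 members had such a bound. The bounds given for single genes below thus hold for the processing reported here.

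**Figure D2:**
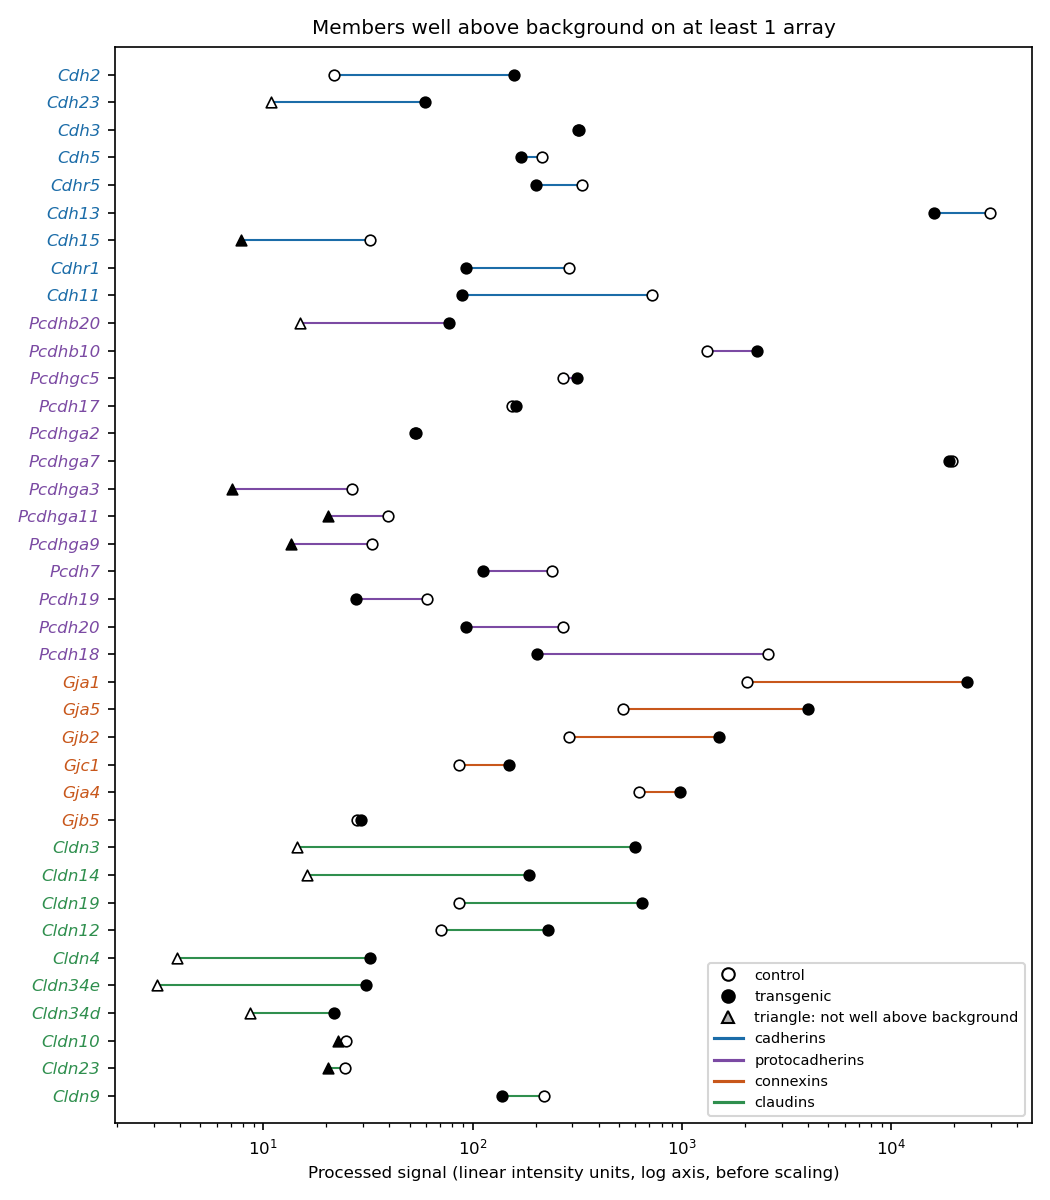
Processed signal of 38 members detected on at least 1 array, on a log axis in linear intensity units before scaling, with control as open and transgenic as filled symbols and triangles where the probe was not well above background. Gja1 runs from 2057 units in control to 23067 in transgenic, and Pcdh18 from 2571 down to 202.

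Connexins were led by Gja1, the main connexin of osteoblasts and of heart muscle. Its signal was 2057 units in control and 23067 in transgenic, over 10 spots on each array. This is a 9.40-fold higher level in transgenic, or 3.23 ± 0.20 log2 (scanner error), and the spots of each array varied by an SD of only 0.027 and 0.032 log2. Gja5, a connexin of the cardiac conduction system and of arterial endothelium, had 524 units in control and 3988 in transgenic. It was 6.39-fold higher (2.67 ± 0.20 log2), although its 2 control spots differed with an SD of 0.50 log2. Gjb2, a connexin of the inner ear and of epithelia, had 289 units in control and 1503 in transgenic, a 4.35-fold higher level (2.12 ± 0.20 log2). These 3 connexins lie on different chromosomes in RefSeq's annotation of assembly GRCr8, and each is represented by 1 probe.

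Promoter sequences are shown for the 3 connexins that were higher together and, for contrast, for the members with the largest bound upward (Cldn3) and the largest difference downward (Pcdh18). They are RefSeq windows of 300 bases around the annotated gene start on assembly GRCr8, written 5′ to 3′ on the gene's strand. Capitals mark matches on either strand to CACCTG, an E-box of the kind bound by Snail and Zeb repressors of cadherin genes, to TGANTCA of AP-1, to ACGTG, the core of a hypoxia response element, and to TATAAA.
Gja1, chr20:36302314-36302613, plus strand: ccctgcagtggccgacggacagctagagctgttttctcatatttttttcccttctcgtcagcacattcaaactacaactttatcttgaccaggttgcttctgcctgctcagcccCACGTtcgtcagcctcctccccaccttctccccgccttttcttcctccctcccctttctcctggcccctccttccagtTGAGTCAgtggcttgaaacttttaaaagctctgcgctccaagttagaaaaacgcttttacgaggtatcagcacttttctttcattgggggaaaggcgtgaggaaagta
Gja5, chr2:187290977-187291276, plus strand: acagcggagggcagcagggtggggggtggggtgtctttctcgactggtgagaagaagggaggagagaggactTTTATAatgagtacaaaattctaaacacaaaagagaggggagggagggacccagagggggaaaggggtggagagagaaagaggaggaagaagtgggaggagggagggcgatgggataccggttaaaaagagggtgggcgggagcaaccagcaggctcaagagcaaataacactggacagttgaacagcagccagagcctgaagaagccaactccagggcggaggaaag
Gjb2, chr15:35381904-35382203, minus strand: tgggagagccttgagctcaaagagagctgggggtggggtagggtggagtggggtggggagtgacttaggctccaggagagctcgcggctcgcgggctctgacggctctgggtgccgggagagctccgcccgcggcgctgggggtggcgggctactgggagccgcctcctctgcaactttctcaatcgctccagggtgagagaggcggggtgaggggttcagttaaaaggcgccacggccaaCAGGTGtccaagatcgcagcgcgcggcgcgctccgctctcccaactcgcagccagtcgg
Cldn3, chr12:27346498-27346797, minus strand: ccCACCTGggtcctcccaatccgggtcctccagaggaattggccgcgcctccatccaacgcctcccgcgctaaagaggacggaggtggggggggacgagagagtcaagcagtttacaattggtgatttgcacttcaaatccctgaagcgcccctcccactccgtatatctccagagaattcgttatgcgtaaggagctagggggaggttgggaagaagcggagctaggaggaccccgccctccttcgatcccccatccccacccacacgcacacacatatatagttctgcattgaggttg
Pcdh18, chr2:135996777-135997076, minus strand: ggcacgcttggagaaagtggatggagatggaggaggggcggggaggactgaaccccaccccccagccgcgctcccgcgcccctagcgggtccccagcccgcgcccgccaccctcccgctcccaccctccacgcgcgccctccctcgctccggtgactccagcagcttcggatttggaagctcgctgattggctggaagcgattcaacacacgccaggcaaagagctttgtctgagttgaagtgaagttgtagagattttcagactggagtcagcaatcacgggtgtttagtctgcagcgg

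The connexin windows shared none of these letter strings. Gja1 held 1 AP-1 match and 1 hypoxia core, Gja5 held 1 TATAAA match, and Gjb2 held 1 E-box, while Cldn3 held 1 E-box and Pcdh18 held none of the 4. Of the members 71 had a window in the table, as 72 entries. The E-box occurred in 20.8% of these and in 18.8% of all 33469 windows, the AP-1 string in 5.56% and 7.33%, the hypoxia core in 12.5% and 19.3%, and TATAAA in 12.5% and 14.2%. A match is a description of letters and not of a bound site.

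The other connexins lay within 2-fold or were dim. Gja4, a connexin of endothelium and of the ovarian follicle, had 622 and 984 units (0.41 ± 0.20 log2). Gjc1, a connexin of early heart and smooth muscle, had 86.1 and 149 units (0.53 ± 0.21 log2). Both lay on the higher side by more than their scanner errors. Gjb5, an epidermal and placental connexin, had 27.9 and 29.2 units (-0.19 ± 0.35 log2, within its error). Gja3, Gja6, Gjb1, Gjb6, Gjd2, Gjd4 and Gje1 were detected on neither array.

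Neighbouring genes were read side by side in the RefSeq gene order of assembly GRCr8. Gjb2 lies next to Gjb6, which was not detected on either array where Gjb2 was 4.35-fold higher. Among the claudins the neighbours Cldn3 and Cldn4 were both detected on the transgenic array alone. Cldn9, within 2-fold, lies next to Cldn6, which was detected on neither array. Cdh5, within 2-fold, lies next to Cdh11, which was lower.

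Claudins were mostly not detected on the control array, where 5 of 25 were well above background. Cldn3, a claudin of epithelial tight junctions and a receptor for a clostridial enterotoxin, had 14.5 units in control, where neither spot was above background, and 595 in transgenic. It was at least 32.6-fold higher in transgenic, the largest bound among the members. Cldn14, a claudin of the cochlea and kidney, had 16.2 and 185 units. Its control spots were also below the detection call, and the bound was at least 9.59-fold higher.

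Cldn19, a claudin of kidney tubules and of peripheral myelin, was detected on both arrays by both of its probes. The brighter probe gave 86.4 units in control and 647 in transgenic, a 6.28-fold higher level (2.65 ± 0.21 log2). The other probe gave 20.7 and 176 units, a 7.11-fold higher level, so the probes differed little. Cldn12 had 70.7 and 230 units on 1 probe, 2.73-fold higher (1.45 ± 0.22 log2), while its second probe was not detected on either array (4.21 and 5.68 units). With the mean over both probes its difference came to 0.81 log2 and no longer reached 2-fold.

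Other claudins were near the detection limit. Cldn4, the genomic neighbour of Cldn3, had 3.89 units in control and 32.3 in transgenic, with a bound of at least 1.77-fold higher. Cldn34e (3.09 and 31.1 units) and Cldn34d (8.64 and 21.9 units) were detected in transgenic alone with bounds of at least 1.71-fold and 1.20-fold higher, each on 1 spot per array. Cldn10 (24.7 and 22.7 units) and Cldn23 (24.5 and 20.4 units) were detected in control alone, with bounds of at least 1.30-fold and 1.44-fold lower in transgenic. Cldn9 had 218 and 138 units (-0.92 ± 0.21 log2). The remaining 15 claudins were detected on neither array: Cldn1, Cldn2, Cldn5, Cldn6, Cldn7, Cldn8, Cldn11, Cldn15, Cldn16, Cldn17, Cldn18, Cldn20, Cldn22, Cldn24 and Cldn34a. Cldn5, the claudin of endothelium, was among these, with 4.11 and 5.16 units.

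Cadherins differed in opposite directions between the members typical of mesenchyme. Cdh11, the cadherin of osteoblasts and loose mesenchyme, had 721 units in control and 89.4 in transgenic on its brighter probe. It was 9.63-fold lower in transgenic (-3.27 ± 0.21 log2), and 5.25-fold lower on its other probe (209 and 47.4 units). Cdh2, the N-cadherin of neural tissue, heart and mesenchyme, had 21.7 units in control and 158 in transgenic. It was 6.11-fold higher (2.61 ± 0.34 log2). Its control level was close to background, with 70% of 10 spots well above it and an SD of 0.40 log2 between them, and the fold came to 1.06 log2 with normexp background correction and to 1.22 log2 in the authors' processed values.

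Cdh13, a cadherin anchored in the membrane by a lipid and a receptor for adiponectin, had 29756 units in control and 16076 in transgenic. It was 2.21-fold lower (-1.14 ± 0.20 log2) and 2.22-fold lower on its second probe. Cdh5, the cadherin of endothelial junctions, had 214 and 171 units (-0.58 ± 0.21 log2), and Cdh3, the P-cadherin of epithelia, 318 and 324 units (-0.23 ± 0.21 log2). Cdh15, the M-cadherin of muscle satellite cells, was detected in control alone (32.5 and 7.82 units) and was at least 2.43-fold lower. Cdh23, part of the tip links of hair cells, was detected in transgenic alone (10.9 and 59.5 units) and at least 3.26-fold higher, though its 2 control spots differed with an SD of 1.35 log2.

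Both cadherin-related genes, members of the wider superfamily, lay on the lower side, Cdhr5 by almost nothing (-0.00011 log2) with spike-in scaling. Cdhr1, a photoreceptor cadherin, had 290 units in control and 93.3 in transgenic, a 3.71-fold lower level (-1.89 ± 0.21 log2) over 10 spots on each array. Cdhr5, a cadherin of the intestinal and renal brush border, had 335 and 202 units, a 1.98-fold lower level (-0.98 ± 0.21 log2), and its other probe was not detected (3.26 and 3.39 units). Cdh1, the E-cadherin that defines epithelia, was at 4.24 and 4.35 units and was not detected. Neither were Cdh6, Cdh7, Cdh8, Cdh9, Cdh10, Cdh16, Cdh17, Cdh19, Cdh20, Cdh22 or Cdh26.

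Protocadherins outside the genomic clusters lay mostly on the lower side. Of 8 genes 5 were detected on both arrays, 4 of these were at least 2-fold lower and 0 higher, and the median was -1.38 log2. Among all matched genes detected on both arrays, 11.1% passed 2-fold on the lower side and 10.5% on the other. The median difference of those genes was -0.09 log2. With spike-in scaling only Pcdh18 stayed past 2-fold. Pcdh20 (-0.80 log2), Pcdh19 (-0.40 log2) and Pcdh7 (-0.37 log2) then lay within it, and Pcdh17 turned to 0.80 log2. Pcdh18, a protocadherin of the delta type, had 2571 units in control and 202 in transgenic. It was 15.2-fold lower (-3.92 ± 0.21 log2), the largest difference of any member detected on both arrays. Pcdh20 had 269 and 93.3 units, a 3.44-fold lower level (-1.78 ± 0.21 log2).

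The remaining differences in this group were smaller. Pcdh19, whose human counterpart underlies a form of epilepsy, had 60.5 and 27.7 units, a 2.61-fold lower level (-1.38 ± 0.31 log2). Pcdh7 had 240 and 112 units, a 2.56-fold lower level (-1.36 ± 0.21 log2), but 78.7 and 58.8 units on its other probe, a 1.60-fold lower level. Neither gene reached 2-fold with normexp background correction or in the authors' processed values. Pcdh17 had 154 and 161 units (-0.18 ± 0.21 log2) on 1 probe and was not detected on the other, and Pcdh8, Pcdh9 and Pcdh12 were detected on neither array.

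Clustered protocadherins, whose alpha, beta and gamma genes lie in tandem and give neurons distinct surface identities, were mostly not detected: 16 of 24 were below the detection call on both arrays. No clustered gene detected on both arrays reached 2-fold, and their median difference was -0.16 log2 over 4 genes. Pcdhb10 had 1316 and 2277 units (0.54 ± 0.20 log2), Pcdhgc5 had 271 and 314 units (-0.04 ± 0.21 log2), and Pcdhga2 had 53.7 and 53.1 units (-0.27 ± 0.25 log2). Pcdhga7 gave 19535 and 18908 units on 1 probe (-0.30 ± 0.20 log2) and 3.23 and 3.83 units on the other. Transcripts of the gamma cluster share their last exons, and the exon each probe reads is not known here, so signals of gamma probes cannot be assigned to 1 gene with certainty.

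Among clustered genes seen on 1 array, Pcdhga3 (26.5 and 7.08 units), Pcdhga9 (33.3 and 13.6 units) and Pcdhga11 (39.6 and 20.3 units) were detected in control alone. Their bounds were at least 1.99-fold, 2.49-fold and 2.32-fold lower in transgenic. Pcdhb20 was detected in transgenic alone (15.0 and 77.6 units), at least 4.25-fold higher, and its other probe was likewise detected in transgenic alone (5.65 and 46.9 units). The gamma members seen on 1 array were thus all on the control side and close to the detection limit.

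Most cytoplasmic partners of cadherins lay within 2-fold. Of 13 matched catenins and adherens junction partners, 9 were detected on both arrays, 2 were higher, 1 was lower and the median was 0.30 log2. Over all matched genes detected on both arrays, 10.5% were higher and 11.1% lower, the shares to set beside this and the following lists. Ctnnb1, the beta-catenin that binds cadherin tails, had 265 and 389 units (0.30 log2), and Ctnna1, the alpha-catenin that links to actin, had 764 and 1416 units (0.64 log2). Vcl, the vinculin that reinforces the actin link, had 8034 and 2791 units and was 3.43-fold lower (-1.78 log2). Its other probe differed by -2.72 log2. Nectin2, an immunoglobulin-type adhesion receptor, was 3.58-fold higher. Afdn, its scaffold, was 2.35-fold higher on 1 probe (1.23 log2) and differed by -0.11 log2 on another. Nectin3 was detected in control alone and was at least 2.75-fold lower.

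Tight and gap junction partners detected on both arrays lay within 2-fold. Of 19 matched tight junction partners, 10 were detected on both arrays, 0 were higher, 0 were lower and the median was -0.39 log2. Tjp1, the scaffold ZO-1 that binds claudins and Gja1, had 1108 and 1106 units (-0.26 log2), and Ocln, occludin, had 487 and 437 units (-0.41 log2). Pard6b, a polarity protein, was detected in transgenic alone, at least 10.1-fold higher, and Tjp3 in control alone, at least 4.02-fold lower. Of 8 matched pannexins and gap junction partners, 6 were detected on both arrays and all 6 lay within 2-fold. Panx2, a channel protein related to connexins in topology, was detected in transgenic alone, at least 10.3-fold higher. Of 8 matched desmosome genes Pkp2, an armadillo protein of desmosomes, was the only gene detected on both arrays (2020 and 322 units, 7.48-fold lower), and Evpl, which ties desmosomes to keratins, was detected in control alone, at least 3.04-fold lower.

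Among 9 matched genes of the wider cadherin superfamily, 4 were detected on both arrays. Dchs1, a giant cadherin of planar polarity that pairs with Fat cadherins, had 44.5 units in control and 9156 in transgenic, 173-fold higher on 1 probe. Fat1, a giant cadherin that regulates actin, had 48515 and 13244 units and was 4.37-fold lower, and Fat3 was detected in control alone, at least 7.20-fold lower. Dchs1 and Fat1 thus differed in opposite directions, but Fat4 had no matched probe, and whether the measured genes act as a pair was not tested.

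Transcription factors linked to cadherin switching were all detected. Of 10 matched, 2 were higher (10.5% over all matched genes), 3 were lower (11.1% over all matched genes) and the median was 0.01 log2. Snai2, a repressor of Cdh1, had 1525 and 97.7 units and was 18.6-fold lower, while Snai1, its relative, had 6248 and 7277 units (-0.03 log2). Twist2 was 9.70-fold higher and Prrx1 3.08-fold higher, Zeb2 was 2.73-fold and Foxc2 2.70-fold lower, and Twist1 differed by 0.05 log2. Of 9 matched genes for proteases that cut cadherins, 6 were detected on both arrays. Of these 2 were higher and 0 lower, beside the same shares over all matched genes. Mmp14 was 3.39-fold higher, and Psen2, the catalytic subunit of a gamma-secretase, was 5.24-fold higher. Mmp3 (22.2 and 14258 units) and Mmp9 (3.42 and 7545 units), secreted matrix proteases, were detected in transgenic alone, at least 539-fold and 413-fold higher.

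Markers of cell types that carry these junction genes differed between the arrays as well. Of 15 stromal markers 13 were detected on both arrays and 1 on transgenic alone, among them Col1a1 (111314 and 86945 units), Thy1 (2396 and 4352) and Pdgfrb (36036 and 23536). These 3 lay within 2-fold, but 5 of the 13 were higher and 3 lower in transgenic, against 10.5% and 11.1% of all matched genes. Cxcl12, a chemokine of marrow stroma, was 8.55-fold higher on 1 probe (3.10 log2) and differed by 5.79 log2 on its other probe. Eng was 5.22-fold higher, while Mcam was 7.04-fold and Nes 5.91-fold lower. The list summed to 374823 units in control and 295918 in transgenic. A summed signal is set against the same list on the other array, and bright probes dominate it.

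Of 11 epithelial markers, Cdh1, Epcam, Krt8 and Krt19 were not detected on either array. Cdh3, Grhl2, Krt5, Krt14 and Ocln were detected on both and lay within 2-fold, and Esrp1 was detected in control alone. Krt18, a keratin of simple epithelia, was the 1 gene of this list detected in transgenic alone (3.99 and 70.7 units), at least 3.87-fold higher. The list summed to 1005 and 1021 units. Of 8 matched endothelial markers, Pecam1, Kdr, Tek, Tie1 and Emcn were not detected on either array. The summed signal was 820 and 234 units, and Erg made up 556 of the control sum. Erg was 21.0-fold lower on that probe, with a transgenic signal of 31.5 units that was close to the detection limit. Its other probe was detected in control alone (63.0 and 13.6 units). Cdh5 lay within 2-fold (214 and 171 units), and Esam was detected in control alone, at least 1.96-fold lower.

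Osteoblast markers summed to 1574 and 396 units over 5 matched genes, and Cdh11 itself, a member of that list, made up 721 of the control sum. Alpl, the bone alkaline phosphatase, was 6.48-fold lower, Ibsp was detected in control alone, and Bglap was not detected. Sp7, the remaining gene of this list, went the other way but lay within 2-fold (1.64-fold higher in transgenic, 0.72 log2). Smooth muscle markers summed to 294016 and 114608 units, with 3 of 5 lower and 0 higher.

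Macrophage and leukocyte markers summed to 13899 and 5016 units over 10 genes. Of 7 detected on both arrays 4 were lower and 2 higher, against 11.1% and 10.5% of all matched genes. Lyz2, a lysozyme of myeloid cells, had 8372 units in control and 66.3 in transgenic and was 151-fold lower. Laptm5 was 7.07-fold lower, and the signalling adaptors Fcer1g and Tyrobp 22.3-fold and 46.1-fold lower. Cd14 (590 and 2426 units) and Cd68 (602 and 2152 units) were the higher ones. Ptprc, Itgam and Cd163 were not detected on either array. Neural and glial markers summed to 4892 and 2178 units over 8 genes, with 3 detected in transgenic alone and 2 in control alone. Ncam1, from 3430 to 510 units, was the 1 lower gene of that list and carried the difference of the sum. Skeletal muscle markers summed to 501 and 492 units over 6 genes, and of 4 detected on both arrays 1 was lower and 0 higher. The part of these cell types in the differences of cadherins, protocadherins, connexins and claudins was not tested.

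**Figure D3:**
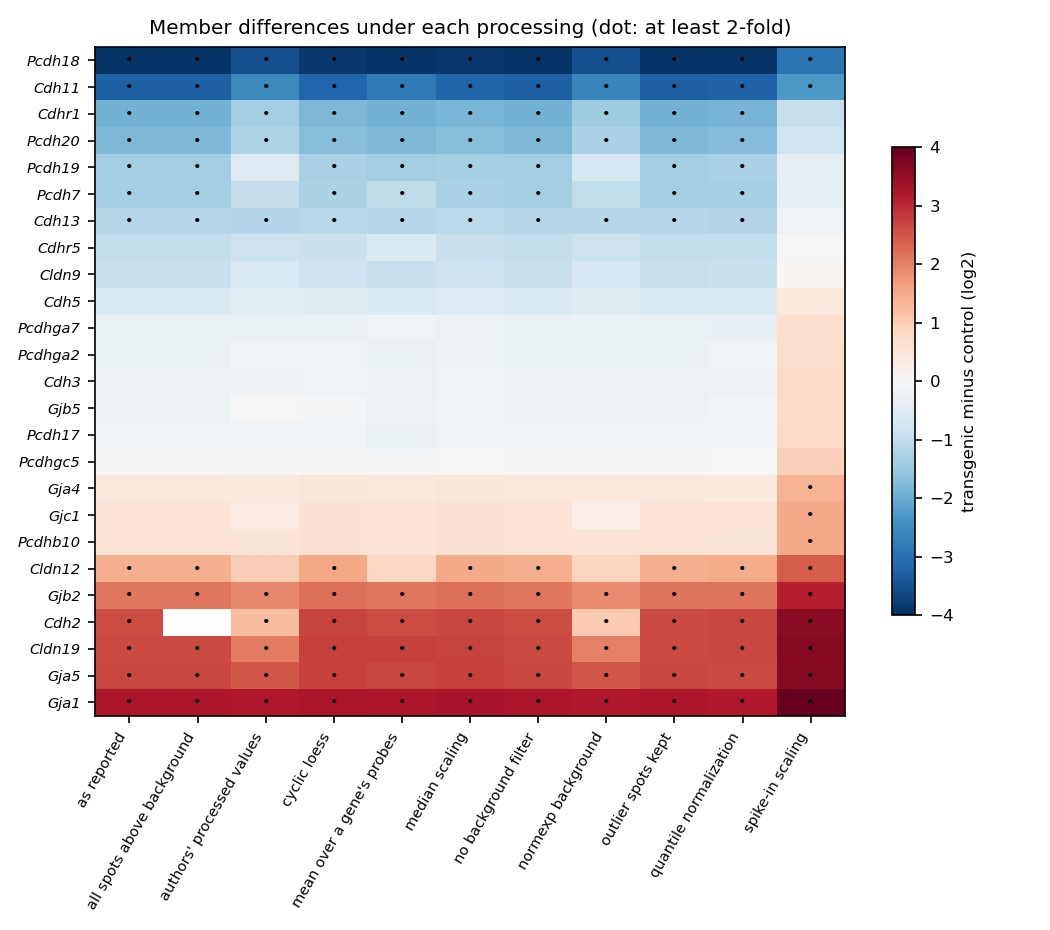
Differences in log2 of 25 members detected on both arrays (rows) under the reported processing and 10 alternatives (columns), red for higher and blue for lower in transgenic, with a dot where the difference is at least 2-fold and a blank where the gene was no longer detected on both arrays. With spike-in scaling, in the last column, every difference moves up, and Pcdh18 and Cdh11 are the members that keep a dot on the lower side.

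The sign of the smaller differences rested on the scaling. When the arrays were scaled on 8 detected E1A spike-in probes, the median of all matched genes moved from -0.09 to 0.89 log2. Gja1, Gja5, Gjb2, Cdh2, Cldn12 and Cldn19 were then still higher by over 2-fold, with Gja1 at 4.22 log2, and Gja4, Gjc1 and Pcdhb10 passed 2-fold as well. Pcdh18 (-2.94 log2) and Cdh11 (-2.28 log2) were still lower by over 2-fold. Cdh13, Cdhr1, Pcdh7, Pcdh19 and Pcdh20 kept their sign but came to between -0.91 and -0.16 log2. Directions given for the members and lists thus compare a gene with most other genes of its array, and the partner and marker lists were not recounted with this scaling.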

How the data were processed

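Per the file headers, the deposited scanner files hold linear intensity values of 62976 spots per array, read in 1 colour; the scanner software, Agilent Feature Extraction 11.0.1.1, had already subtracted background. A table deposited by the authors holds log2 values for 23153 probes. Its normalization and centring are unknown here; scale and direction were judged from its differences, which correlated with those computed here across 13619 probes (r = 0.978). Column medians were 7.20 in control and 7.18 in transgenic. That table served as an alternative.

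Outlier spots (446 and 505 of 58717 non-control spots) were left out and log2 signals averaged per probe (30366 probes; Python 3.11.15, pandas 2.3.3). Each array's 75th percentile was subtracted. Probes were named through a RefSeq table of assembly GRCr8 by accession without version, which gave 18005 probes 1 symbol. Probe coordinates are left out because the array design used an earlier assembly. A gene was represented by its probe of highest mean scaled signal; 82 members had 1 probe and 12 had several.

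Members detected on at least 1 array are named, except a few genes that are not reported here by name but stay in the counts and medians, together with list genes past 2-fold or well known. Pairs of members are called neighbours where no other protein-coding gene lies between them. Alternatives were median, quantile, cyclic loess (limma 3.58.1, R 4.3.3) and spike-in scaling, normexp with an offset of 50 on median spot signals in place of the planned mean ones, which the files used here lack, the filters on dim probes, the mean over probes, outlier spots kept, and 1.5-fold and 4-fold rules. The calling step was tested on simulated data. The members and lists were chosen with earlier results of these data known. Some listed genes had no matched probe: Ctnna3, Ctnnd2, Nectin1, Pkp4, Dsc1, Dsg1, Dsg2, Dsp, Pkp1, Cgn, Patj, Nov, Celsr1, Celsr2, Dchs2, Fat4, Zeb1, Adam10, Egfl7, Vwf and Runx2.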

Additional observations from a re-analysis of the deposited data

How the results depend on the processing

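All 13 members past 2-fold kept their side under median, quantile and cyclic loess scaling, with outlier spots kept and without a background filter. With normexp background and with the authors' processed values, Cldn12, Pcdh7 and Pcdh19 no longer reached 2-fold, and Cldn12 also fell short when probes of a gene were averaged. When all spots had to be above background, Cdh2 was no longer detected on both arrays. No member past 2-fold changed sign under any alternative run. With 1 array per group no array could be left out, and depth is limited by signal over background, so members below 15.3 units in control or 15.9 in transgenic have no measured level. No paired analysis was possible because each group has 1 array.

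With spike-in scaling 2 members were lower, in place of 7, 7 had a transgenic bound past 2-fold in place of 4, and 1 a control bound in place of 4; medians were -0.00011 log2 for cadherins, 0.68 for protocadherins, 1.52 for connexins and 2.43 for claudins. Without a background filter, which adds genes at background, 14 members were higher and 15 lower. Medians were then -0.21 for cadherins, -0.20 for connexins and -0.17 for claudins, with the sign turned for connexins and claudins. Over all matched genes the median in that setting was -0.20 log2, with 1571 of 15168 higher and 1729 lower. With normexp background and with the authors' processed values 2 members had a transgenic bound and 1 a control bound past 2-fold, and the claudin median was 0.90 and 0.97. With probes of a gene averaged the claudin median was 0.81 and the cadherin median -0.59. By a 4-fold rule 2 members were lower and 1 had a control bound. The causes of these shifts were not tested.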
